A study of Mus musculus with 4 samples.

Results

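The 36 genes described here encode the enzymes and cofactors that shorten the poly(A) tail of an mRNA, remove its 5′ cap and degrade its body. They were taken by gene symbol from the deposited counts, which list 54920 genes, and comprised 11 subunits of the CCR4-NOT complex, 5 BTG/TOB adaptors, PAN2 with PAN3 and PARN, 2 cytoplasmic poly(A)-binding proteins, 7 decapping factors, the 7 proteins of the cytoplasmic LSM ring and the exonuclease XRN1. All 36 were found, and all 36 were among the 23952 genes that passed the expression filter. RNA-seq was performed on ID4-EGFP+ undifferentiated spermatogonia sorted by flow cytometry from testes at postnatal day 8, in 2 control and 2 *Cnot3*-cKO libraries. The paper's figure legend gives 3 biological replicates for this RNA-seq, and 2 libraries per group were available here. Control mice were *Cnot3*flox/flox; *Id4-eGfp* and carried no Cre, although the labels call them wild-type. *Cnot3*-cKO mice were *Cnot3*flox/flox; *Ddx4*-creER; *Id4-eGfp*, in which a tamoxifen-inducible Cre is driven by the germ cell gene *Ddx4*. Both groups had received 4-OHT from postnatal day 1 to day 3 and carried the floxed alleles and the EGFP reporter. The labels do not say whether a library was made from 1 animal or from several, so the replicates behind the p values below are libraries.

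Most eukaryotic mRNAs are degraded from the poly(A) tail inward. The CCR4-NOT complex, built on the scaffold CNOT1, removes the tail with 2 kinds of deadenylase, CNOT6 or CNOT6L and CNOT7 or CNOT8, and its NOT module, which contains CNOT2 and CNOT3, contacts the proteins that bring the complex to particular mRNAs. After deadenylation the LSM1 to LSM7 ring and PATL1 bind the 3′ end, DCP2 with its activators removes the cap, and XRN1 degrades the exposed 5′ end.

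Between 22192964 and 43378493 reads were counted per library, with the controls the deeper pair. Values are given as CPM (reads per library, scaled to a common library size after TMM normalization), and a difference is the log2 fold change of *Cnot3*-cKO over control from the edgeR quasi-likelihood fit, with its standard error (SE). A gene was said to rise or fall when its Benjamini-Hochberg adjusted p over all 23952 genes was under 0.01. With 2 libraries against 2, an exact two-sided permutation test of 1 gene cannot go below 0.333, so these p values depend on the dispersion fitted across genes, a biological coefficient of variation of 0.145. Per kilobase of exon (RPKM), control levels of the 36 genes ran from 0.401 ± 0.147 for *Btg4* to 69.2 ± 17.2 for *Pabpc1* (SD, n = 2), with *Cnot2* (50.3 ± 0.927), *Cnot1* (48.2 ± 6.22) and *Lsm4* (42.8 ± 9.96) next. The library values of these 3 genes overlapped each other and lay below those of *Pabpc1*. RPKM here uses all exons of a gene, and the order depends on the length used. With the length of 1 transcript per gene, *Cnot1* was above *Cnot2* in controls (19.2% and 14.3% of the summed CCR4-NOT transcripts).

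In *Cnot3*-cKO cells 4 of the 36 genes fell, *Cnot3*, *Dcp2*, *Ddx6* and *Lsm6*, and 1 rose, *Cnot2*. Of all tested genes 10.9% passed the test, 4.70% lower and 6.21% higher, and the 4 members that fell make 11.1% of the list. Most members are abundant, and among the 10246 genes with at least 10 CPM in controls, a comparison chosen after the data had been seen, 10.3% fell and 6.74% rose. Without *Cnot3*, the deleted gene, 3 of 35 members fell (8.57%). At this threshold in this edgeR fit, the list with or without *Cnot3* held falling genes at about the rate of other abundant genes. That did not hold for every fit. DESeq2 gave 9 lower members, against 1668 of 18589 genes, and the replicate block 10, against 1637 of 23952. Upper quartile scaling gave 2, against 801 of 23952. Abundance was not matched in these 3 comparisons. By edgeR at an adjusted p under 0.05, 12 members were lower (33.3%), or 11 of 35 without *Cnot3* (31.4%). Of all tested genes 9.46% were lower, and of the abundant ones 19.9%. Among the members 1 was higher, against 11.1% of all tested genes (20.6% in either direction). The additional 8 lower members were *Cnot1*, *Cnot9*, *Tob2*, *Pan2*, *Pabpc1*, *Edc3*, *Lsm1* and *Lsm2*. With a fold change above 2 required as well, *Cnot3* alone was called lower and 0 members were called higher by edgeR, where 0.735% of tested genes were called lower, 4.03% higher and 4.76% in either direction. DESeq2 called the same numbers at these thresholds. The highest log2 fold change of a member was 0.51 (*Btg4*) by edgeR, so with this fold limit none could be called higher at any p.

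The differences other than *Cnot3* were small and mostly pointed down. Of the 36 genes 28 had a log2 fold change under 0 (21 with scaling to germ cell genes), as did 49.2% of all tested genes and 62.3% of the abundant ones. The median was -0.21, against 0.0089 for all tested genes and -0.10 for the abundant ones. In 24 members both *Cnot3*-cKO libraries were below both controls and in 4 both were above, while the background shares were 28.6% and 30.5% of tested genes, or 44.8% and 24.2% of the abundant ones. The groups did not overlap in 59.1% of all tested genes. The 4 members above were *Cnot2*, *Cnot11*, *Tob1* and *Edc4*. The number that fell depended on the libraries, for the members and for all tested genes. Without control replicate 1 the member median was -0.18, against 0.046 for all tested genes. Without control replicate 2 these medians were -0.26 and 0.020. Without *Cnot3*-cKO replicate 1 they were -0.20 and 0.0023, and without replicate 2 -0.23 and -0.0088. In these 4 fits *Cnot3* ran from -1.59 to -1.37, *Ddx6* from -0.63 to -0.37 and *Lsm6* from -0.68 to -0.59. The plot of fold changes by role shows the 31 members that did not pass beside the 5 that did.

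**Figure D1:**
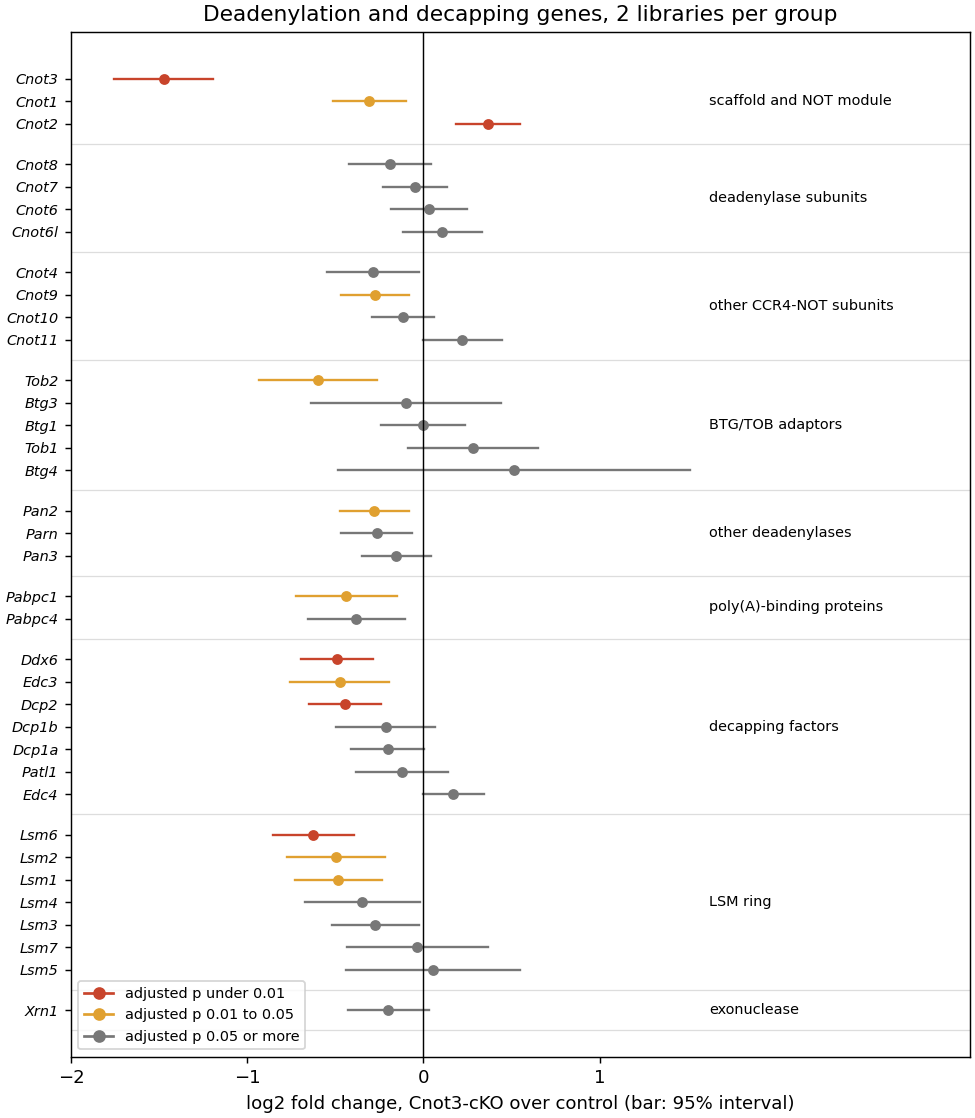
Log2 fold change of *Cnot3*-cKO over control (x axis) for the 36 genes, grouped by role. Points are edgeR estimates from 2 libraries per group, bars are 95% intervals and colours give the adjusted p over all tested genes. *Cnot3* stands apart at -1.48, and 28 of the 36 points lie left of 0.

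**Figure D2:**
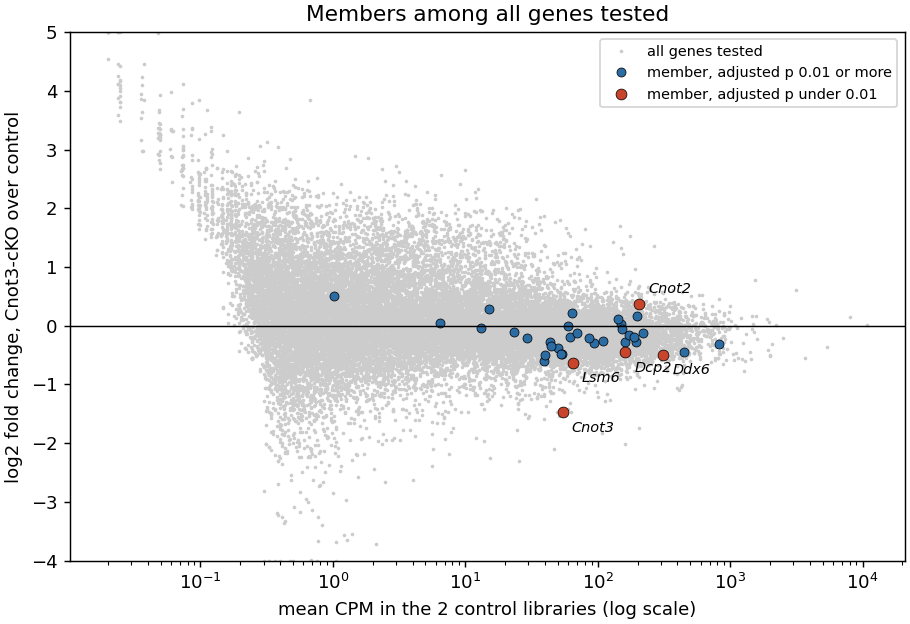
Log2 fold change (y axis) against mean control CPM (x axis, log scale) for the 23952 tested genes in grey and the 36 members in colour, with points beyond the axes drawn at the edge. The 5 members that passed the test are named, and members other than *Cnot3* lie inside the cloud of genes of like abundance.

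*Cnot3*, the deleted gene, was measured first in every library. It lies on chromosome 7 of GRCm38, positions 3645268 to 3661109 of the forward strand. Its level was 58.6 and 50.2 CPM in the controls and 19.2 and 19.9 CPM in the *Cnot3*-cKO libraries, from 2362, 2114, 435 and 571 reads. The groups were far apart and the *Cnot3*-cKO libraries nearly equal. The log2 fold change was -1.48 (SE 0.13, 95% interval -1.75 to -1.20, adjusted p = 1.48e-05), which leaves 0.360 of the control level. Reads were counted over the whole gene, so the exons removed by Cre are not separated from the rest. In sorted bulk RNA, fewer cells with an intact allele and less *Cnot3* RNA per cell cannot be told apart. A processed pseudogene, *Gm9207* (chromosome 3, 96454835 to 96455949, reverse strand), shares 21.6% of the 50-base windows of the *Cnot3* mRNA. It had 213, 131, 32 and 59 reads in the same library order (log2 fold change -1.26, SE 0.35, adjusted p = 0.022). Adding them to *Cnot3* gave a log2 ratio of -1.46. Another 6.07% of the *Cnot3* exonic bases overlap *Leng1* on the opposite strand.

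*Cnot2*, which encodes the partner of CNOT3 in the NOT module, was the only member that rose. It was at 202 and 208 CPM in controls and at 276 and 253 CPM in *Cnot3*-cKO libraries, with no overlap between the groups. Its log2 fold change was 0.37 (SE 0.08, adjusted p = 0.0081), or 1.29 times the control level. The call was lost when *Cnot3*-cKO replicate 1 (adjusted p = 0.166) or replicate 2 (0.023) was left out, under RLE scaling (0.011) and with the length trend removed (0.013). Over the alternatives the fold change stayed between 0.29 and 0.56. *Cnot1*, the scaffold, was at 904 and 753 CPM in controls and 708 and 629 CPM in *Cnot3*-cKO cells. The highest *Cnot3*-cKO value was under the lowest control value, but the controls themselves differed more than this gap (log2 fold change -0.31, SE 0.10, adjusted p = 0.038). Of the alternatives that kept all 4 libraries, *Cnot1* passed only with no filter (adjusted p = 1.1e-04) and the replicate block (0.0070). With 1 library left out, its log2 fold change ran from -0.45 to -0.19.

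The 250 bases before the start of *Cnot3* and *Cnot2* are shown because these are the members of the NOT module that passed the test, in opposite directions, followed by those of *Lsm6*, which fell. They were taken from RefSeq (GRCm38.p6), where 29 of the 36 genes matched, and *Dcp2* and *Ddx6* were not among them. *Cnot3* is at chr7:3645019-3645268 (forward strand), *Cnot2* at chr10:116580537-116580786 (reverse strand, 1 of 2 listed starts) and *Lsm6* at chr8:78821153-78821402 (reverse strand). Capitals mark the GC box (GGGCGG) and the CCAAT box (CCAAT), read on both strands.
*Cnot3*: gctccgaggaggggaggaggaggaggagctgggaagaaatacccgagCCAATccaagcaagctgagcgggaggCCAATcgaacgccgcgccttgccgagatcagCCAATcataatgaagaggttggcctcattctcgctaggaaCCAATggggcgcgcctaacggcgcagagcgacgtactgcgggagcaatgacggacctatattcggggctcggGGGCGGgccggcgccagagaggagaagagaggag
*Cnot2*: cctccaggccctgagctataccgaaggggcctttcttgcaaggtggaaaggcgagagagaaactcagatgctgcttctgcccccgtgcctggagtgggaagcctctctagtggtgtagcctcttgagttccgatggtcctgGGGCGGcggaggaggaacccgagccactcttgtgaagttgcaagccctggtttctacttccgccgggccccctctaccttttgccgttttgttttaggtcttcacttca
*Lsm6*: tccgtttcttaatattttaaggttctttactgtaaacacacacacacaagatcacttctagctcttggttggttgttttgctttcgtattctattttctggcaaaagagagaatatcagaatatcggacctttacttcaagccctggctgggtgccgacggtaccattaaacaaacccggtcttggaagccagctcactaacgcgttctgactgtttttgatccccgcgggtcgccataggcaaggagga
The *Cnot3* window holds both motifs, the *Cnot2* window holds the GC box and the *Lsm6* window holds neither. Over the 29 matched members 65.5% had GGGCGG and 37.9% had CCAAT, and over 27011 genes, each with 1 window of this length, the shares were 33.0% and 34.5%. CCGGAAG, a motif of ETS factors, was in 17.2% of the members and 7.07% of all windows. CACGTG (3.45% and 6.05%) and TATAAA (10.3% and 13.0%) were also searched, and TGACGTCA was in 0 members, against 1.60% of all windows. These are letter matches only, and base composition was not matched.

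The 4 catalytic subunits of CCR4-NOT did not pass the test. Their median log2 fold change was -0.0084 and turned to 0.17 when libraries were scaled to germ cell genes alone. *Cnot6* was at 163 and 137 CPM in controls and 149 and 158 CPM in *Cnot3*-cKO cells (95% interval of the log2 fold change -0.18 to 0.25). Its paralog *Cnot6l* was at 157 and 127 against 154 and 152 CPM (-0.12 to 0.33). In both genes the *Cnot3*-cKO values fell within the range of the controls. *Cnot7*, a deadenylase of the DEDD type, was at 151 and 154 CPM in controls and 146 and 148 CPM in *Cnot3*-cKO cells (-0.23 to 0.13). Its paralog *Cnot8* was at 63.0 and 61.2 against 51.2 and 57.6 CPM (-0.42 to 0.04, adjusted p = 0.250). The *Cnot3*-cKO libraries were below both controls in *Cnot7* and *Cnot8*, by less than the test could resolve, and for *Cnot7* the sign turned with library size only (0.02) and with germ cell scaling (0.14).

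**Figure D3:**
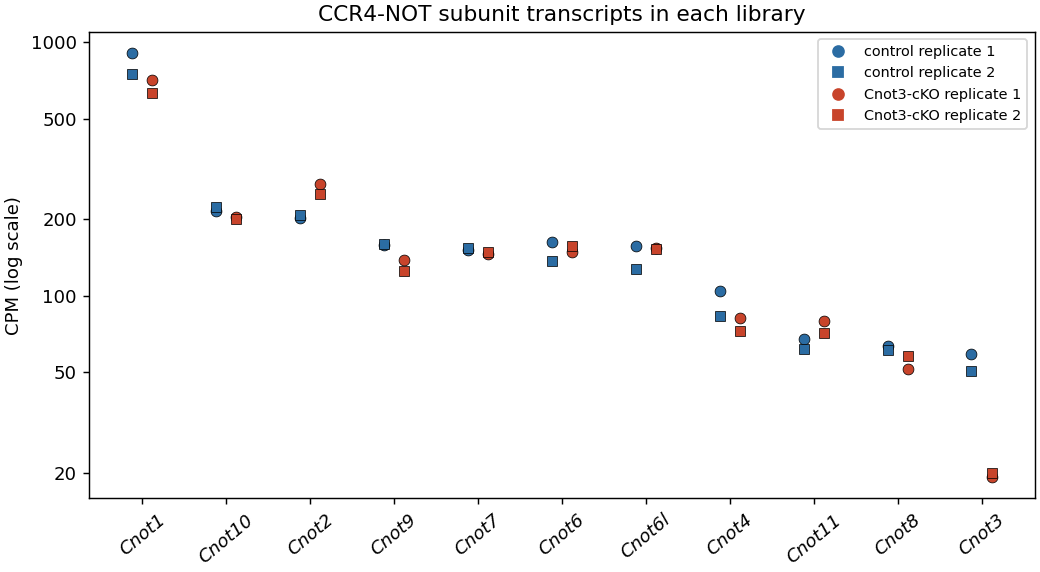
CPM (log scale) of the 11 CCR4-NOT transcripts in each of the 4 libraries, ordered by control level. Symbols give the library, with 2 controls in blue and 2 *Cnot3*-cKO libraries in red. *Cnot3* separates most, and *Cnot2* is the member that is clearly higher in both *Cnot3*-cKO libraries.

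The remaining subunits moved little. *Cnot9*, a docking subunit for microRNA effector proteins, was at 159 and 160 CPM in controls and 138 and 125 CPM in *Cnot3*-cKO cells, a clear gap with a modest size (log2 fold change -0.28, SE 0.09, adjusted p = 0.045). With 1 library left out, its log2 fold change ran from -0.36 to -0.21. *Cnot4*, a ubiquitin ligase, was at 105 and 82.8 against 81.4 and 72.2 CPM (-0.29, SE 0.12, adjusted p = 0.113). Its log2 fold change ran from -0.46 to -0.13 with 1 library left out. *Cnot10* was at 215 and 223 against 203 and 201 CPM (-0.12, SE 0.08, adjusted p = 0.359). Its partner in the N-terminal module, *Cnot11*, went the other way, with 67.3 and 61.8 CPM in controls and 79.2 and 71.3 CPM in *Cnot3*-cKO cells (0.22, SE 0.10, adjusted p = 0.163). Neither of these genes passed, and their intervals include 0.

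The composition of the complex at the transcript level was compared per kilobase of exon within each library. *Cnot3* made 2.58 ± 0.172% (SD, n = 2) of the summed CCR4-NOT transcripts in controls and 0.965 ± 0.0578% (SD, n = 2) in *Cnot3*-cKO cells, the lowest share of the 11 in both groups. With the length of 1 transcript per gene in place of all exons, these shares were 3.75 ± 0.216% and 1.43 ± 0.0850%, and *Cnot11* was lowest in controls. *Cnot2* took 17.1 ± 1.04% in controls and 22.8 ± 0.670% in *Cnot3*-cKO cells, and *Cnot1* took 16.3 ± 1.41% and 13.7 ± 0.691%. Thus the per-kilobase share of *Cnot2* and that of *Cnot1* overlapped in controls and were apart in *Cnot3*-cKO cells. By 1 transcript per gene *Cnot1* was first in controls with 19.2 ± 1.49%, so the order of these genes depends on the length used.

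Among the adaptors, which link RNA-bound proteins to the CNOT7 and CNOT8 deadenylases, *Tob2* had the largest decrease. It was at 36.1 and 42.8 CPM in controls and 22.4 and 29.6 CPM in *Cnot3*-cKO cells. The groups did not overlap, and the log2 fold change was -0.60 (SE 0.15, adjusted p = 0.016). With all 4 libraries kept, *Tob2* passed only with DESeq2 (adjusted p = 0.0026), a robust fit (0.0087), no filter (2.1e-04) and the replicate block (0.0010). Its log2 fold change ran from -0.82 to -0.43 with 1 library left out. *Tob1* was at 13.5 and 16.7 CPM in controls and at 17.0 and 19.6 CPM in *Cnot3*-cKO cells (0.28, SE 0.17, adjusted p = 0.280). *Btg1*, an antiproliferative adaptor, was at 62.9 and 57.4 against 56.5 and 63.6 CPM, with a log2 fold change of -0.0018. *Btg4*, best known in the oocyte, was near the limit of detection, with 0.76 to 1.72 CPM over the 4 libraries (0.51, SE 0.46, adjusted p = 0.496). *Btg3* was at 19.9 and 26.7 against 14.7 and 28.6 CPM. In *Btg1*, *Btg3* and *Btg4* the groups overlapped, and the log2 fold change of *Btg3*, -0.10, ran from -0.67 to 0.29 when 1 library was left out.

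The ratio of *Tob2* to *Tob1* reads per kilobase was nearly the same in the 2 controls, 0.918 and 0.882, and was 0.451 and 0.517 in the *Cnot3*-cKO libraries. On the log2 scale the difference was -0.90, with an SD of 0.04 between controls and 0.14 between *Cnot3*-cKO libraries (exact permutation p = 0.333, the smallest possible). This difference does not depend on the length used, since lengths cancel. Among the 5 related pairs compared, the ratios of *Cnot6l* to *Cnot6* (0.08) and of *Cnot8* to *Cnot7* (-0.14) also did not overlap between groups, again with an exact permutation p of 0.333. The ratios of *Dcp1b* to *Dcp1a* (-0.01) and *Pabpc4* to *Pabpc1* (0.04) overlapped. All 5 p values were 1 or 0.333, so none can pass any threshold.

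**Figure D4:**
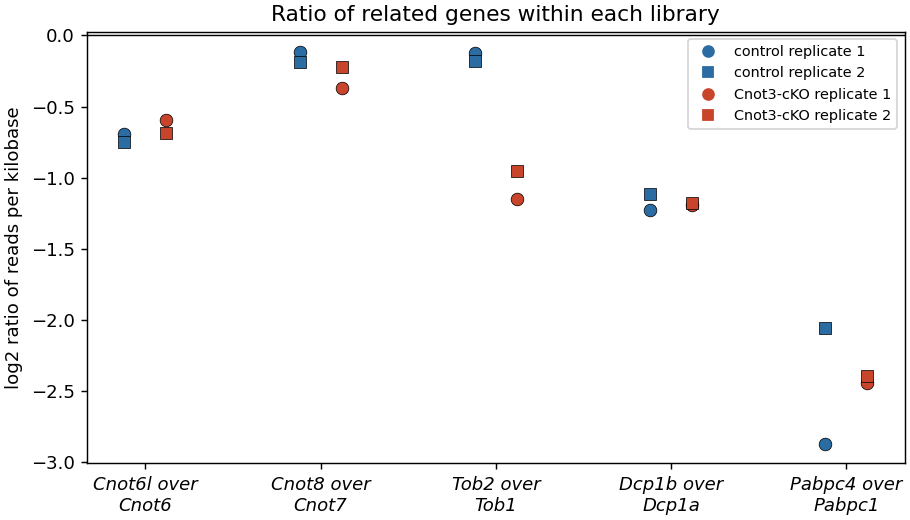
Log2 ratio of reads per kilobase (y axis) for 5 pairs of related genes (x axis) in each of the 4 libraries. *Tob2* over *Tob1* lies at -0.12 and -0.18 in controls and at -1.15 and -0.95 in *Cnot3*-cKO cells, and the other ratios differ far less between groups.

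The ratios above require that reads of the paralogs can be told apart. The longest identical run in each pair of coding sequences is therefore printed, and a read that matches 1 paralog over more bases than this differs from the other.
*Cnot7* and *Cnot8*: tcatttcacagtggttatga
*Cnot6* and *Cnot6l*: cataaagacttcaaggaact
*Tob1* and *Tob2*: tgtccagctctccctc
*Pabpc1* and *Pabpc4*: cagctaccccatggcctc
*Dcp1a* and *Dcp1b*: agtgggagaagactg
These runs were 20, 20, 16, 18 and 15 bases long in transcripts of GENCODE M21, and the aligned coding sequences were identical at 72.8%, 74.5%, 71.6%, 73.1% and 66.6% of positions.

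*Pan2*, *Pan3* and *Parn*, the members that encode deadenylases outside CCR4-NOT, did not pass the test either. *Pan2*, the catalytic subunit of PAN2-PAN3, which trims long tails first, was at 207 and 184 CPM in controls and 166 and 155 CPM in *Cnot3*-cKO cells (-0.28, SE 0.09, adjusted p = 0.045). With all 4 libraries kept, *Pan2* passed only with no filter (adjusted p = 0.0096). Its log2 fold change ran from -0.37 to -0.21 with 1 library left out. *Pan3*, the adaptor of PAN2, was at 185 and 162 against 154 and 159 CPM (-0.15, SE 0.09, adjusted p = 0.274). *Parn*, which also trims the 3′ ends of small noncoding RNAs, was at 115 and 105 against 93.4 and 90.0 CPM (-0.27, SE 0.09, adjusted p = 0.063). Its log2 fold change ran from -0.34 to -0.22 with 1 library left out. In all 3 genes both *Cnot3*-cKO libraries were below both controls, as in 28.6% of all tested genes and 44.8% of the abundant ones.

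The poly(A)-binding proteins coat the tail and are displaced as it shortens. *Pabpc1* was at 532 and 373 CPM in controls and 352 and 316 CPM in *Cnot3*-cKO cells. The 2 controls were further apart than control replicate 2 and the *Cnot3*-cKO libraries (-0.44, SE 0.13, adjusted p = 0.033). Of the alternatives that kept all 4 libraries, *Pabpc1* passed only with DESeq2 (adjusted p = 0.0047), no filter (5.3e-07) and the replicate block (0.0012). A robust fit gave 0.127. With 1 library left out, its log2 fold change ran from -0.68 to -0.18. *Pabpc4* was at 44.8 and 55.2 against 39.7 and 37.0 CPM (-0.38, SE 0.13, adjusted p = 0.050). Its log2 fold change ran from -0.54 to -0.24 with 1 library left out. *Pabpc4* is also the member with the most shared sequence: 74.7% of its 50-base windows occur in another gene, chiefly the pseudogene *Gm10110*.

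Of the decapping factors 2 of 7 fell and 5 did not pass, where 4.70% of all tested genes and 10.3% of the abundant ones fell. *Dcp2*, the catalytic subunit that cleaves the cap, was at 158 and 166 CPM in controls and 111 and 127 CPM in *Cnot3*-cKO cells, with a clear gap between the groups. Its log2 fold change was -0.44 (SE 0.09, adjusted p = 0.0056), or 0.736 of the control level. The call was lost without *Cnot3*-cKO replicate 1 (adjusted p = 0.092), with library size only (0.013), with upper quartile scaling (0.0103) and with scaling to germ cell genes (0.168). *Ddx6*, an RNA helicase that connects CCR4-NOT with decapping and translational repression, was at 343 and 284 CPM in controls and 221 and 225 CPM in *Cnot3*-cKO cells. The *Cnot3*-cKO libraries were close together and well below the controls (-0.49, SE 0.10, adjusted p = 0.0034), and leaving out any 1 library kept the call, with 0.0090 as the highest adjusted p. Upper quartile scaling (0.012) and scaling to germ cell genes (0.126) ended it.

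*Edc3*, an enhancer of decapping that binds DCP2 and DDX6, was at 60.2 and 47.4 CPM in controls and 39.8 and 37.5 CPM in *Cnot3*-cKO cells (-0.48, SE 0.13, adjusted p = 0.021). Its log2 fold change ran from -0.65 to -0.31 with 1 library left out. Among alternatives with all 4 libraries, *Edc3* passed only with DESeq2 (adjusted p = 0.0047), no filter (0.0012) and the replicate block (0.0047). Of its exonic bases 22.1% overlap *Clk3* on the other strand. *Edc4*, the scaffold between DCP1 and DCP2, was the only decapping factor above 0, with 196 and 200 CPM in controls and 225 and 221 CPM in *Cnot3*-cKO cells (0.17, SE 0.08, adjusted p = 0.164). Its libraries were close within each group and did not overlap, yet the difference was too small to pass. The cofactors *Dcp1a* and *Dcp1b* and the LSM-binding protein *Patl1* had log2 fold changes from -0.21 to -0.12 with adjusted p from 0.161 to 0.538.

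In the LSM ring, which protects and marks shortened tails for decapping, *Lsm6* fell and 6 genes did not pass. The shares that fell were 4.70% of all tested genes and 10.3% of the abundant ones. *Lsm6* was at 63.1 and 67.0 CPM in controls and 42.8 and 41.5 CPM in *Cnot3*-cKO cells. Both groups were tight, and *Lsm6* had the largest decrease of the list after *Cnot3*, with a log2 fold change of -0.63 (SE 0.11, adjusted p = 0.0014) and 0.648 of the control level. The call held without any 1 library, with 0.0068 as the highest adjusted p, and was lost with scaling to germ cell genes (0.025).

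*Lsm1*, the subunit found only in the cytoplasmic ring, was at 49.5 and 56.1 CPM in controls and 37.6 and 38.0 CPM in *Cnot3*-cKO cells. With an adjusted p of 0.0101 it lay just above the threshold (-0.48, SE 0.11), and it passed in 7 of 15 alternatives, among them DESeq2 (0.0019), a robust fit (0.0064) and the fit without control replicate 1 (1.02e-04). *Lsm2* was at 41.3 and 39.4 against 30.8 and 26.4 CPM (-0.50, SE 0.13, adjusted p = 0.016) and passed in 5 of 15, with DESeq2 (0.0036) and when control replicate 1 (0.0069) or replicate 2 (0.0023) was left out among them. *Lsm4* was at 37.1 and 51.8 against 33.5 and 36.4 CPM (-0.35, SE 0.15, adjusted p = 0.131). Its log2 fold change ran from -0.58 to -0.099 with 1 library left out. *Lsm3* had a log2 fold change of -0.27 with an adjusted p of 0.114. *Lsm5* and *Lsm7* had the lowest control levels of the ring per kilobase, 8.11 and 8.27 RPKM, with 5.78 to 7.54 and 11.2 to 14.6 CPM over the 4 libraries. Their groups overlapped (log2 fold changes 0.06 and -0.04). In 5 of the 7 ring genes both *Cnot3*-cKO libraries were below both controls, as in 28.6% of all tested genes and 44.8% of the abundant ones.

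*Xrn1*, the exonuclease that completes decay, was at 210 and 166 CPM in controls and 164 and 164 CPM in *Cnot3*-cKO cells. Control replicate 2 was almost at the level of the *Cnot3*-cKO libraries, and the difference did not pass (-0.20, SE 0.11, adjusted p = 0.218). Without control replicate 2 the log2 fold change was -0.37, and without control replicate 1 it was -0.037.

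Several members have near-identical processed pseudogenes, and how reads that match both were counted is not given in the sources used here. The share of 50-base windows found in another gene was 62.8% for *Lsm7*, 51.8% for *Btg3*, 44.0% for *Lsm5* and 20.7% for *Pabpc1*. It was under 10% for *Cnot8*, *Cnot1*, *Ddx6* and *Lsm6*. For *Lsm3* it was 18.2%, shared not with a pseudogene but with a gene that overlaps 6.32% of its exonic bases on the same strand. For *Btg3* the pseudogene *Gm7334* had more reads than the gene itself, 1740, 1577, 694 and 916. Adding both gave a log2 ratio of -0.27 in place of -0.10, and adding *Gm10110* to *Pabpc4* gave -0.42. For *Lsm5* the sum with *Gm7846* gave -0.28, with overlapping groups, against 0.06 for *Lsm5* alone. The levels of *Btg3*, *Pabpc4*, *Lsm5* and *Lsm7* are uncertain for this reason.

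**Figure D5:**
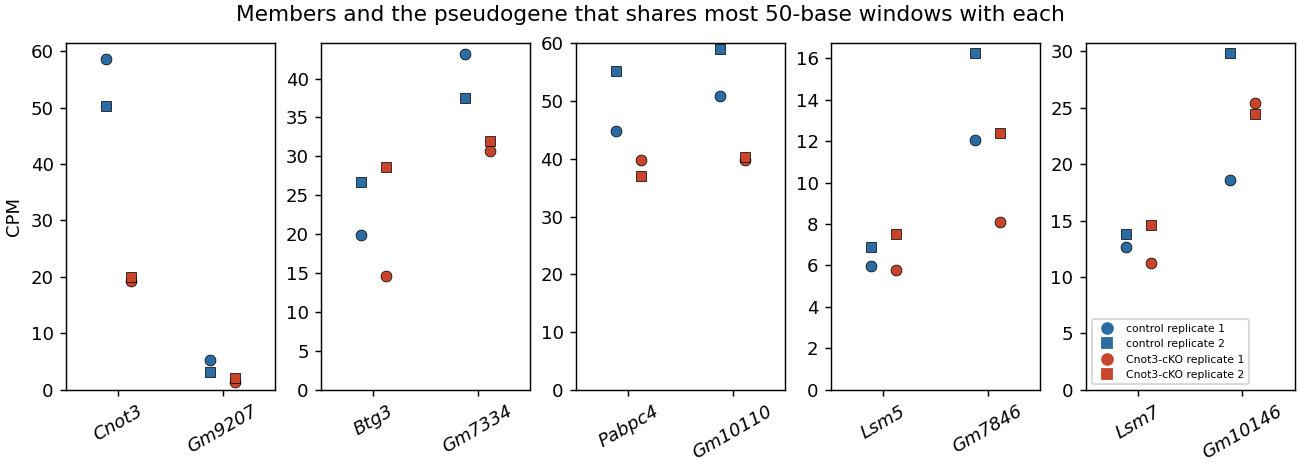
CPM of 5 members and of the pseudogene sharing most 50-base windows with each, in the 4 libraries (each panel has its own y axis from 0). *Gm9207* is lower in both *Cnot3*-cKO libraries, as *Cnot3* is, and *Gm7334*, *Gm7846* and *Gm10146* lie above *Btg3*, *Lsm5* and *Lsm7*.

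A wider list of 41 genes, of which 38 were tested, was described beside the members. These were 14 paralogs of members, 5 deadenylases outside CCR4-NOT, 8 cap and poly(A)-binding protein partners and 14 terminal nucleotidyltransferases. Not all of them act in deadenylation or decapping. The wider list held 6 genes that fell (15.8%) and 2 that rose (5.26%). Of all tested genes 4.70% fell and 6.21% rose, and of the abundant ones 10.3% and 6.74%. The median log2 fold change was -0.06. The genes that fell included *Lsm14b*, an RNA-binding paralog of the LSM family, from 204 ± 11.3 to 127 ± 11.95 CPM (SD, n = 2 per group, log2 fold change -0.68, SE 0.09, adjusted p = 3.71e-04). *Paip2b* and *Paip2*, which keep poly(A)-binding protein off the tail, went from 141 ± 4.48 to 89.8 ± 12.2 CPM (-0.65, SE 0.10) and from 290.2 ± 17.6 to 214 ± 1.34 CPM (-0.44, SE 0.08), with adjusted p values of 9.69e-04 and 0.0027. *Lsm12* went from 81.0 ± 3.599 to 58.2 ± 4.18 CPM (-0.48, SE 0.10, adjusted p = 0.0061), and *Angel1*, a relative of the CNOT6 deadenylases, also fell. *Tut4* and *Tut7*, paired terminal uridylyltransferases that add uridines to short tails, went in opposite directions. *Tut4* fell from 236 ± 14.6 to 176 ± 2.23 CPM (-0.42, SE 0.08, adjusted p = 0.0039), and *Tut7* rose from 41.5 ± 3.32 to 67.1 ± 2.94 CPM (0.69, SE 0.11, adjusted p = 9.54e-04). *Tent5c*, a noncanonical poly(A) polymerase, was the other gene that rose. The number that passed changed when 1 library was left out, here and over all tested genes. In these fits the log2 fold change ran from -0.78 to -0.60 for *Lsm14b* and from 0.60 to 0.76 for *Tut7*.

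Germ cell identity and other cell types in the sort were read from marker lists. Of 11 germ cell genes listed in the counts 1 fell, with a summed level of 5635 and 6115 CPM in controls and 5178 and 5392 CPM in *Cnot3*-cKO cells, and the gene that fell was *Piwil2* (-0.44). *Dazl* and *Ddx4*, the highest in CPM over the 4 libraries, had log2 fold changes of -0.21 and 0.05. Undifferentiated spermatogonia markers were present, 4 higher and 3 lower of 11, with a median log2 fold change of 0.15. *Id4*, the gene of the sort reporter (1.04), *Gfra1* (0.90), *Etv5* (0.54) and *Eomes* (1.39) rose, and *Zbtb16*, *Lin28a* and *Sall4* fell by 0.82, 1.09 and 0.42 on the log2 scale. Markers of somatic cells were higher in *Cnot3*-cKO libraries. For Sertoli cells 10 of 12 rose, and the summed level went from 260 and 251 to 831 and 864 CPM, with *Clu* (1.69) and *Aard* (1.98) the highest in CPM. For Leydig cells 5 of 5 tested rose, from 368 and 322 to 831 and 896 CPM, led by *Hsd3b1* (1.35) and *Cyp11a1* (1.20), while *Insl3* had 0 reads in all libraries. For macrophages 9 of 9 rose, from 275 and 179 to 611 and 499 CPM, led by *Mrc1* (1.39) and *Lyz2* (1.10). Peritubular myoid markers rose in 2 of 6 genes (47.5 and 48.0 to 63.5 and 80.5 CPM, *Pdgfra* 0.60, *Acta2* 0.94). Endothelial markers rose in 2 of 5 tested (23.6 and 21.5 to 35.4 and 39.98 CPM, *Pecam1* 1.18, *Tek* 0.48 without passing). Of 12 genes of the dissociation response 4 rose, *Fos* (1.41), *Fosb* (1.79), *Jun* (1.33) and *Junb* (2.30, from 0.66 CPM in controls). All 12 had a log2 fold change above 0, and *Egr1* (0.28) and *Btg2* (0.03) were among those that did not pass. The summed level of the 12 went from 160 and 148 to 219 and 255 CPM. The part of these cells in the levels of the 36 genes was not tested. When libraries were scaled to the germ cell list alone, the median of all tested genes moved to 0.19 and that of the members to -0.03. Both moved by about the same amount because a rescaling moves every gene alike. The median of the germ cell list itself moved from -0.11 to 0.09, so this scaling did not set it to 0. Calls lost with this scaling are to be read with that limit. With this scaling 1 member, *Cnot3*, fell and 1, *Cnot2*, rose, against 318 and 2304 of all 23952 tested genes.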

How the data were processed

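RNA-seq of ID4-EGFP+ cells from 2 control and 2 *Cnot3*-cKO libraries was analysed. The authors aligned reads to mm10 with STAR and deposited raw read counts per gene from featureCounts on a GENCODE annotation, which had not been normalized. The total RNA kit does not select poly(A) tails. Options for strand and for reads matching several genes are not given in the sources used here. Totals were 40957899 and 43378493 counts in controls and 22192964 and 28019626 in *Cnot3*-cKO libraries. Counts were filtered with filterByExpr, scaled with TMM and tested with edgeR 4.0.16 (quasi-likelihood F test, limma 3.58.1, R 4.3.3) without covariates, with Benjamini-Hochberg adjustment over 23952 genes. The procedure was tested on simulated data. Per-kilobase values used exon lengths of GENCODE M21, which lacked 552 of the tested genes. Sequence comparisons used Biopython 1.88 and exact tests SciPy 1.17.1.

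The members and all lists were chosen with earlier results of these data known. Named with values were the CCR4-NOT members, members that passed, and those with the largest and smallest fold change in each role group. Other members beyond this rule, up to 6 genes of the wider list and the 2 markers highest in CPM per list were also named. Germ cell markers and dissociation response genes named because they passed were chosen after their values were seen. Alternatives were RLE, upper quartile, library size and germ cell scaling, no filter or a mean count of at least 50, a robust fit, DESeq2 1.42.0, a replicate block, an adjusted p under 0.05, thinning to 22192964 counts and leaving out each library. Removal of a length trend and the length of 1 transcript per gene were chosen after seeing the data.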

Additional observations from a re-analysis of the deposited data

How the results depend on the processing

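The decrease of *Cnot3* passed under all 15 alternatives, with log2 fold changes from -1.59 to -1.30. The count of members that fell was 4 of 36, against 1125 of all 23952 tested genes. It became 2 with upper quartile scaling (801 of 23952) and 1 with scaling to germ cell genes (318 of 23952). With no filter it was 11, against 2006 of 39712 genes. DESeq2 gave 9, against 1668 of 18589, and the replicate block 10, against 1637 of 23952. At an adjusted p under 0.05 it was 12, against 9.46% of all tested genes. The count also changed when 1 library was left out. The count of members that rose was 1, against 1488 of 23952 tested genes. It became 0 with RLE scaling (1440 of 23952) and with the length trend removed (1421 of 23952). Of the other pathway genes, 3, 3 and 2 fell with upper quartile, library size and germ cell scaling and 2 to 8 without 1 library, and 1 rose with RLE scaling and 1 to 2 without 1 library. Same-numbered libraries were not paired by the labels and their deviations hardly correlated (0.0478 over 18050 genes). The median of the members was -0.171 with upper quartile, -0.144 with library size and -0.0268 with germ cell scaling, and -0.258 to -0.179 without 1 library. With library size only, the medians of the other CCR4-NOT subunits and decapping factors were -0.130 and -0.149. With germ cell scaling the role medians were -0.126 for the scaffold and NOT module, 0.173 for the deadenylase subunits, -0.00835 for other CCR4-NOT subunits, 0.176 for the adaptors, -0.0833 for other deadenylases, -0.226 for poly(A)-binding proteins, -0.0317 for decapping factors, -0.155 for the LSM ring and -0.0218 for *Xrn1*. Without 1 library these medians ran from -0.447 to -0.186 for scaffold and NOT module, from -0.0773 to 0.0355 for deadenylase subunits, from -0.246 to -0.141 for other CCR4-NOT subunits, from -0.0947 to 0.245 for BTG/TOB adaptors, from -0.341 to -0.208 for other deadenylases, from -0.485 to -0.352 for poly(A)-binding proteins, from -0.279 to -0.203 for decapping factors, from -0.48 to -0.266 for LSM ring, from -0.369 to -0.0369 for *Xrn1*. The *Cnot3* share fell by 2.32 percentage points with 1 transcript per gene. Directions turned for *Cnot7* (0.0179 with library size, 0.137 with germ cell scaling), *Cnot10* (0.0707) and *Pan3* (0.0259) with germ cell scaling, and without 1 library for *Cnot6* (-0.103 to 0.150), *Cnot6l* (-0.0511 to 0.256) and *Lsm5* (-0.158 to 0.221). *Btg3*, *Btg1*, *Lsm7* and *Patl1* turned both with germ cell scaling (0.0736, 0.176, 0.144 and 0.0589) and without 1 library (-0.674 to 0.285, -0.0947 to 0.0710, -0.246 to 0.130 and -0.279 to 0.0230), and *Btg1* and *Lsm7* also with library size (0.0633 and 0.0310) and upper quartile scaling (0.0354 and 0.00457), and *Btg1* with a mean count of at least 50 (0.0291). None of these 10 genes passed in any fit. In fits that leave 1 library in a group, that library is assumed to vary like the other group. The causes of these changes were not tested. Thinning all libraries to 22192964 counts left 1 member higher and 4 lower, against 1473 and 1159 of the 22005 genes then tested.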
